A study of Xenopus tropicalis with 3 samples.

Results

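The Wnt ligands, their Frizzled receptors and their secreted modulators were examined for accessible chromatin in the urostyle of Xenopus tropicalis at stage 65. The urostyle is the bony rod behind the sacrum of a frog. Members were the protein-coding genes on chromosomes 1 to 10 of the UCB_Xtro_10.0 gene table whose symbol begins with wnt, fzd, sfrp, dkk or rspo followed by a digit. The rule used no measured value. It found 41 of 21748 protein-coding genes, namely 21 wnt, 10 fzd, 4 sfrp, 3 dkk and 3 rspo genes. The data are ATAC-seq peaks, stretches of DNA that a transposase could cut more often than the background, from a single library of urostyle tissue that was dissected from tadpoles and crushed. The labels of this library give no genotype, strain, treatment or number of animals. The study also holds libraries of stages 56 and 61, whose chromosome names are of another kind and which were not used here.

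Wnt proteins are secreted signals that bind Frizzled receptors together with LRP5 or LRP6. In the canonical branch this stabilises beta-catenin, which then acts with TCF and LEF factors on target genes, while other branches steer cell polarity and movement. Secreted Frizzled-related proteins bind Wnts outside the cell, Dickkopf proteins block the LRP co-receptors, and R-spondins raise signalling by keeping Wnt receptors at the cell surface. In vertebrate skeletons the pathway is known for promoting osteoblast formation, for patterning joints and for maintaining the growing tail tip of the embryo.

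The stage 65 list held 311625 peaks, of which 311385 lay on chromosomes 1 to 10. Each peak carried a fold, read here as the ratio of its summit pileup to a genome-wide background pileup of 5.68. Pileup is the number of sequenced reads or fragments that overlap a position. Pileups and background were recovered from the steps of the fold, assuming that 1 was added to both. Intervals given with folds are exact Poisson 95% intervals of the summit pileup and cover counting error only. There was no replicate, so no difference was tested. Tissue markers were near the background, with a gene-end peak in 13 of 15 (86.7%), where 85.7% of all coding genes had one. Cartilage markers had one in 3 of 4, bone in 3 of 3, muscle in 2 of 2, neural in 2 of 2, blood in 2 of 2 and epidermis in 1 of 2, and none was called at the cartilage matrix gene acan or the epidermal regulator tp63. Folds varied within a tissue, from 2.84 at col2a1 to 20.7 at sox9 in cartilage, from 3.74 at myog to 22.2 at myod1 in muscle and from 4.49 at spi1 to 43.0 at gata1 in blood. Of these, myod1 and gata1 lay 0.903 and 1.07 Mb from a chromosome end. The gata1 peak was 11335 bp wide and, like the sox9 peak, lay wholly outside its gene. No folds by summit are given for the markers.

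Most members had accessible chromatin near a gene end. A peak overlapped the 1 kb to either side of a gene end in 38 of 41 members (92.7%, exact binomial interval 80.1 to 98.5), where 85.7% of all coding genes had one, so that the share of members was near the background. The gene table holds no strand, and a gene end can be the start or the finish. Both ends carried a peak in 27 members (65.9%), against 45.2% of all coding genes. In a short gene a single peak can count for both ends, as at fzd8. A gene-end fold of at least 4 was found in 30 members (73.2%), against 50.6%, and one of at least 10 in 9 members (22.0%), against 12.2%. The median of the highest gene-end fold was 4.79 over members and 4.04 over all coding genes, with genes lacking such a peak set to 0. By gene length, a gene-end peak was found in 6 of 6 members under 5 kb (78.4% of coding genes of that length), 12 of 13 of 5 to 20 kb (87.3%), 15 of 16 of 20 to 60 kb (87.4%) and 5 of 6 of 60 kb and over (87.5%). With the shares that coding genes of the same length class and the same class of distance to a chromosome end showed, 41 genes would give 35.2 with a gene-end peak, 18.8 with both ends, 21.3 with a fold of at least 4 and 5.64 with a fold of at least 10. These shares describe the gene table and are no test.

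**Figure D1:**
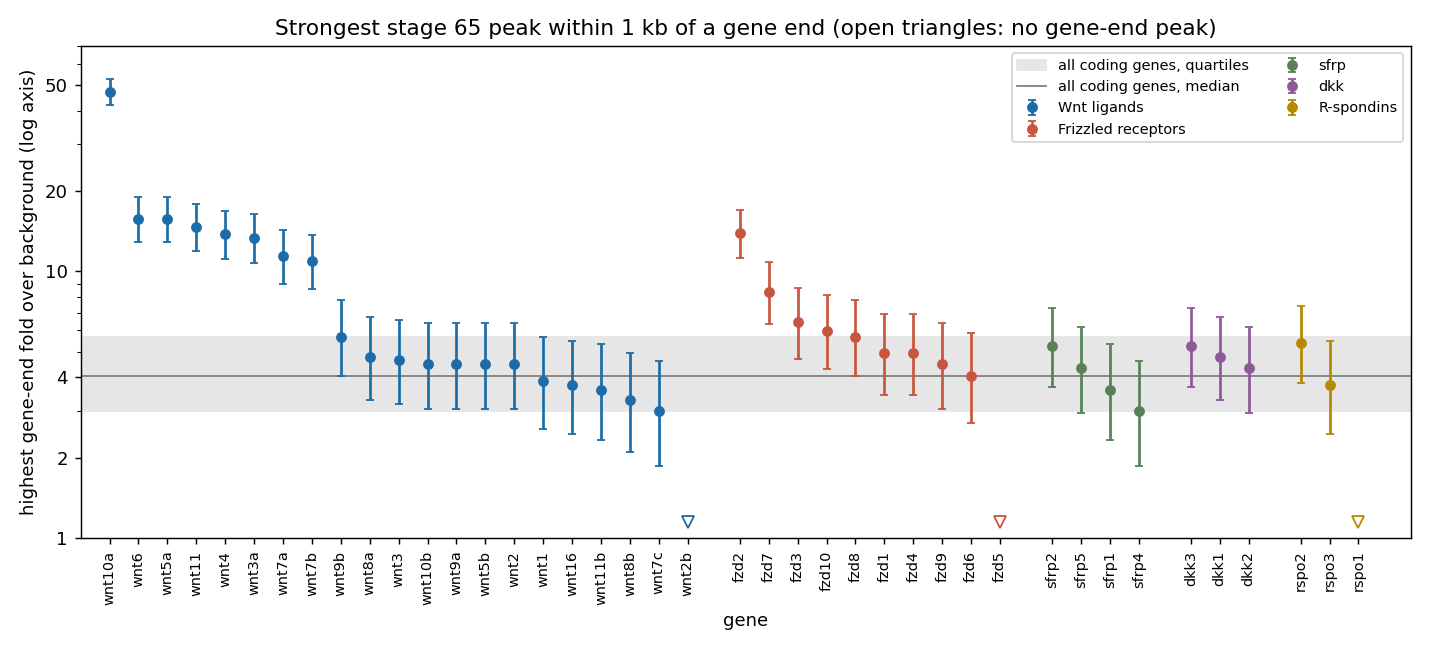
Highest fold of a stage 65 peak within 1 kb of a gene end for each of the 41 genes (points, log axis) with Poisson 95% intervals of the summit pileup, grouped by subfamily. The grey line and band are the median (4.04) and quartiles (2.99 to 5.69) of all coding genes, and open triangles mark the 3 genes without a gene-end peak. The wnt genes span the widest range, from no peak to a fold of 47.2, and 8 of them and fzd2 lie above 10.

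Wnt ligand genes had a gene-end peak in 20 of 21 cases (95.2%, 76.2 to 99.9), where 85.7% of all coding genes had one. Their median highest fold was 4.64, against 4.04 over all coding genes. The highest stood at wnt10a, a ligand known from teeth, hair and skin, with a fold of 47.2 (42.1 to 52.7) at chr9:82679846-82684896. This peak, 5051 bp wide, reached across the lower end of the gene. Its recovered pileup of 314 was far above that of the next genes. A fold of 15.7 (12.9 to 19.0) was shared by wnt6, the neighbour of wnt10a, at chr9:82607629-82608602, and by wnt5a, the ligand best known for non-canonical signalling and limb outgrowth, at chr4:149647944-149651408. At wnt11 the fold was 14.7 (11.9 to 17.9) at chr2:173025255-173028336. At wnt4, which acts in kidney and joint development, it was 13.8 (11.1 to 16.9) at chr7:94264130-94266485, and at wnt3a, a ligand of the tail bud, 13.3 (10.7 to 16.4) at chr6:10134620-10140948. Intervals of these last 5 genes overlapped one another, so their order is not settled by counting error, and wnt10a lay outside all of them.

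The limb patterning gene wnt7a (11.4, 8.98 to 14.2) and its relative wnt7b (10.9, 8.58 to 13.7) completed the ligands above a fold of 10. The wnt7a peak also overlapped the end window of a neighbouring coding gene. The other 12 occupied wnt genes fell between 2.99 at wnt7c and 5.69 at wnt9b, a range within which all intervals overlapped. Among them, wnt1, wnt10b and wnt16, which are linked to bone mass in mammals, had folds of 3.89, 4.49 and 3.74. No gene-end peak was called at wnt2b.

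Frizzled genes, which encode the membrane receptors of Wnts, were occupied in 9 of 10 cases with a median of 5.32. The interval of this share runs from 55.5% to 99.7%, and the share of all coding genes was 85.7%. Their median length was 4.86 kb. In the shortest, fzd1 with 1.79 kb, the windows around the ends cover the whole gene. The longer fzd3 and fzd6 span 52.1 and 28.7 kb. The highest fold was 13.9 (11.3 to 17.0) at fzd2, at chr10:14871012-14879017, in a peak 8006 bp wide whose summit lay 4159 bp outside the gene. Next came fzd7, a receptor of early Xenopus development, with 8.38 (6.35 to 10.9) at chr9:52209337-52211761, and the planar polarity receptor gene fzd3 with 6.44 (4.68 to 8.65) at chr5:152112024-152113662. From fzd10 (5.99) to fzd6 (4.04) the remaining occupied receptor genes had overlapping intervals. A fold of at least 4 was found in 9 of 10 receptor genes (90%), against 50.6% of all coding genes, with unoccupied genes kept in both shares. Where the summit had to lie in the window, fzd2 had no gene-end peak. The fold was then 2.99 at fzd7 and 3.89 at fzd9, and the other occupied receptor genes kept a fold of at least 4. No gene-end peak was called at fzd5, a receptor gene of eye and forebrain.

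The secreted Wnt-binding genes were all occupied and all modest. The fold was 5.24 (3.68 to 7.26) at sfrp2, 4.34 (2.94 to 6.21) at sfrp5, 3.59 (2.33 to 5.32) at sfrp1 and 2.99 (1.86 to 4.59) at sfrp4. All 4 had peaks at both ends, against 45.2% of all coding genes. By summit sfrp4 had none at its lower end, while the other sfrp genes kept both. At the ends of sfrp1 lay 5 separate peaks, the most of any member. The Dickkopf genes were likewise all occupied, with 5.24 (3.68 to 7.26) at dkk3, a divergent family member, 4.79 (3.30 to 6.74) at dkk1, a classical LRP antagonist, and 4.34 (2.94 to 6.21) at dkk2. The dkk3 peak also lay in the end window of usp47. Intervals of all these genes overlapped. With 4 sfrp and 3 dkk genes, the intervals of the occupied shares run from 39.8% and 29.2% to 100%. The share of all coding genes was 85.7%.

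R-spondin genes were occupied in 2 of 3 cases, and 0 of 3 had a peak at both ends, against 45.2% of all coding genes. The fold was 5.39 (3.80 to 7.44) at rspo2, a factor of limb development, at chr6:133621440-133622579, and 3.74 (2.45 to 5.50) at rspo3. None was called at rspo1, which is known for ovary determination in mammals. With 3 genes the interval of the occupied share runs from 9.43% to 99.2%, and the share of all coding genes was 85.7%.

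The 3 genes without a gene-end peak were not free of peaks. In rspo1, 13 peaks lay in the gene interior, the highest with a fold of 5.99 (4.30 to 8.13) at chr2:84802242-84803120. In wnt2b, 4 interior peaks and 4 flank peaks were called, the highest with a fold of 3.89. At fzd5 the only interior peak had its summit 1170 bp from the lower gene end and a fold of 2.84, and a flank peak reached 7.19 (5.32 to 9.51). With 2.5 kb windows fzd5 was occupied, while rspo1 and wnt2b were not.

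The strongest gene-end peaks were not centred on gene ends. In all 9 members with a fold of at least 10, the summit lay between 1143 and 5274 bp from the nearer end, and in 6 of the 9 outside the gene. Their median width was 3930 bp, against 954 bp for the other 29 occupied members, of which 22 had the summit of the best peak within 1 kb. When a peak had to have its summit in the window, 35 members were occupied (85.4%, against 75.4% of all coding genes). A fold of at least 4 was then found in 22 members (53.7%, against 35.5%) and peaks at both ends in 13 (31.7%, against 26.1%). A fold of at least 10 was found in 0 members, against 2.82% of all coding genes. By overlap these shares were 22.0% and 12.2%, so among all coding genes too most such folds were lost by summit. Summit distances and widths are not given here for all coding genes. By summit the gene-end fold was 4.34 at wnt10a, 5.09 at wnt6, 4.64 at wnt4, 3.29 at wnt11, 4.49 at wnt3a and 2.99 at fzd7. Under this rule fzd2, wnt5a and wnt10b had no gene-end peak at all, in addition to fzd5, rspo1 and wnt2b. The gene-end folds above 10 given for members thus belong to peaks that overlap the window but have their summit beyond it.

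Every member had further peaks in its interior or in the 20 kb to each side. Member loci held a median of 16 peaks, gene ends included, near the 15 of all coding genes. Counted once, the 41 loci held 725 peaks, with a median width of 612 bp and a median fold of 3.44, against 569 bp and 3.29 for all peaks on these chromosomes. Summed by gene there were 80 gene-end, 285 interior and 378 flank peaks, against 35367, 143745 and 201019 over all coding genes. The number per locus ran from 7 at fzd5 and fzd10 to 52 at wnt5b, a ligand of cartilage growth whose long span of 90.3 kb held 36 interior peaks. Per 10 kb the median was 2.61 over members and 2.39 over all coding genes. It was highest at dkk1 (4.03), wnt5b (3.99) and wnt7c (3.78) and lowest at wnt2b (0.897), dkk2 (1.04) and wnt2 (1.16). By subfamily the median was 3.30 for dkk, 2.99 for wnt, 2.49 for sfrp, 2.24 for fzd and 1.39 for rspo genes. The dkk median covers genes as far apart as dkk1 and dkk2, the highest and the second lowest of all members.

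**Figure D2:**
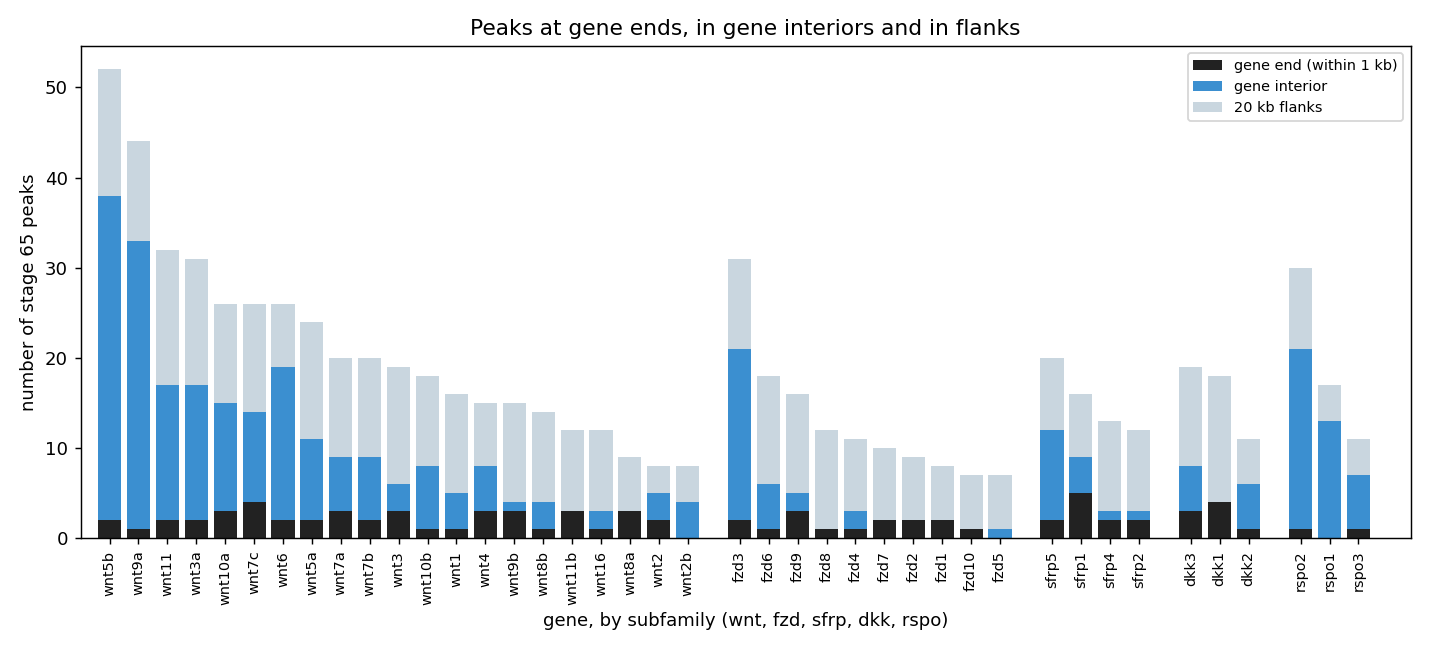
Number of stage 65 peaks at gene ends (black), in the gene interior (blue) and in the 20 kb flanks (grey) of each gene, by subfamily. The total runs from 7 at fzd5 and fzd10 to 52 at wnt5b. In the receptor genes, of median length 4.86 kb, 85 of 129 peaks lie in the flanks. The flanks hold 201019 of 380131 peaks over all coding genes and 37444 of 43683 over coding genes under 5 kb.

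The strongest peak of a locus lay in a flank in 23 members (56.1%, against 62.4% of all coding genes), in the interior in 10 (24.4%, against 20.6%) and at a gene end in 8 (19.5%, against 16.9%), shares near those of all coding genes. The highest of all was a flank peak of wnt11 with a fold of 110.6 (102.8 to 118.9) at chr2:173089571-173092506, with its summit 7081 bp from the upper gene end. Distances of other peaks below are also those of summits. It was followed by a wnt7a flank peak (52.1, 46.8 to 57.9), the wnt10a gene-end peak and a wnt9b flank peak (43.0, 38.2 to 48.2). The highest interior peaks stood in wnt5a (38.3, 33.8 to 43.3), at chr4:149664758-149671260, and in dkk3 (29.2, 25.3 to 33.6). Some genes with weak ends had a strong interior peak. At wnt7c the ends reached 2.99, but an interior peak at chr8:23872729-23876032 had a fold of 21.6 (18.2 to 25.4), and at wnt2 an interior peak at chr3:68405064-68406136 had 13.3 (10.7 to 16.4) beside gene ends of at most 4.49. At dkk1 the strongest peak lay in the lower flank at chr7:13827537-13829689, 17705 bp from the gene, with a fold of 17.8 (14.8 to 21.3), against 4.79 at its ends. At rspo2 a flank peak reached 16.3 (13.4 to 19.7). In 22 members no other coding gene reached into the flanks, and the rest had up to 3 there. The same count over all coding genes is not given here.

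The values followed position on the chromosome. Distance was measured to the nearer end of the chromosome, taken as position 1 or the last peak, and the classes were chosen after values were seen. The 8 members under 10 Mb from an end, wnt5a, wnt5b, wnt6, wnt7a, wnt7b, wnt10a, wnt11 and dkk3, had a median of 50.8% of gene and flanks covered by peaks. The share was 38.8% for 8 members at 10 to 20 Mb, 15.2% for 10 members at 20 to 40 Mb and 11.9% for 15 members farther in. All coding genes showed the same descent, with medians of 46.0%, 28.1%, 17.2% and 12.2%. Across the 41 members Spearman's correlation of coverage with distance was -0.88, and across all coding genes it was -0.71. These are descriptions over genes of a single library, and neighbouring genes share their stretch of chromosome.

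Gene-end folds followed the same order. A fold of at least 10 was found in 6 of 8 members under 10 Mb (35.3% of coding genes there), 2 of 8 at 10 to 20 Mb (16.6%), 1 of 10 at 20 to 40 Mb (6.11%) and 0 of 15 farther in (1.42%). Peaks at both ends were found in 8, 6, 8 and 5 members of these classes, against 72.7%, 58.2%, 41.9% and 26.8% of coding genes. A gene-end peak of any fold was found in all 8, all 8, all 10 and 12 of 15 members, against 93.8%, 88.9%, 85.6% and 80% of coding genes, so all 3 members without one lay over 40 Mb from an end. The wnt genes had a median distance of 15.5 Mb and the rspo genes of 67.8 Mb, so subfamily and position cannot be told apart here. The single member with a fold above 10 beyond 20 Mb was wnt4, at 39.3 Mb.

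**Figure D3:**
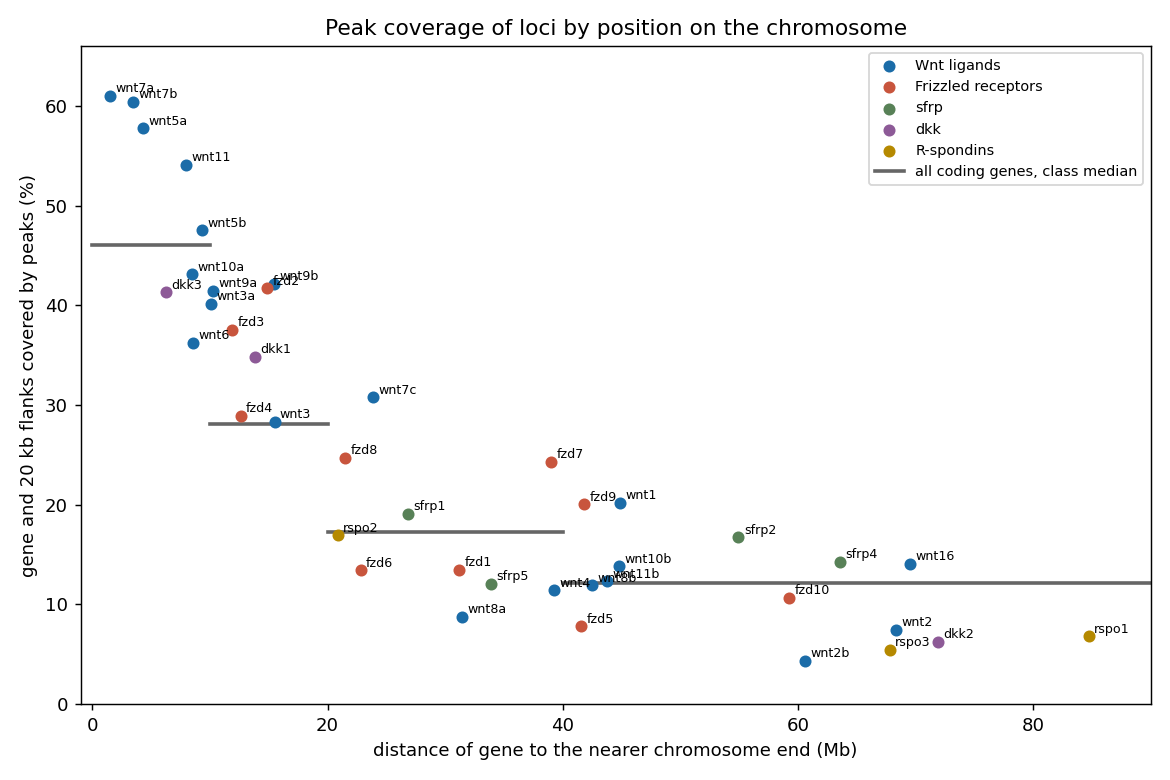
Percent of each gene and its 20 kb flanks covered by stage 65 peaks (vertical axis) against the distance of the gene to the nearer chromosome end in Mb (horizontal axis), coloured by subfamily. Grey lines are the medians of all coding genes in 4 distance classes, and coverage descends from 61.0% at wnt7a to 4.33% at wnt2b.

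Coverage of a locus was close to that of its surroundings in many cases and stood apart in a few. The surroundings were the 500 kb beyond each flank. In 26 of 41 members (63.4%) the gene and flanks were covered more than the surroundings, against 49.5% of all coding genes, and the median ratio was 1.10 against 1.00. The ratio was above 1 in 16 of 21 wnt genes, 6 of 10 fzd genes, 2 of 4 sfrp genes, 1 of 3 dkk genes and 1 of 3 rspo genes. It was highest at wnt16, with 14.1% against 6.10% around it, and at fzd7, with 24.3% against 12.1%. The fzd2 locus had 41.7% against 25.0% and wnt9b 42.2% against 26.3%. It was lowest at wnt2b, with 4.33% against 10.7%, followed by wnt8a with 8.75% against 15.5%. At wnt4 the locus (11.4%) and its surroundings (11.3%) were alike, so its peak of fold 13.8 stood in a sparsely covered stretch, whereas wnt7a (61.0% against 53.2%) and wnt7b (60.4% against 54.1%) lay in densely covered ones.

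**Figure D4:**
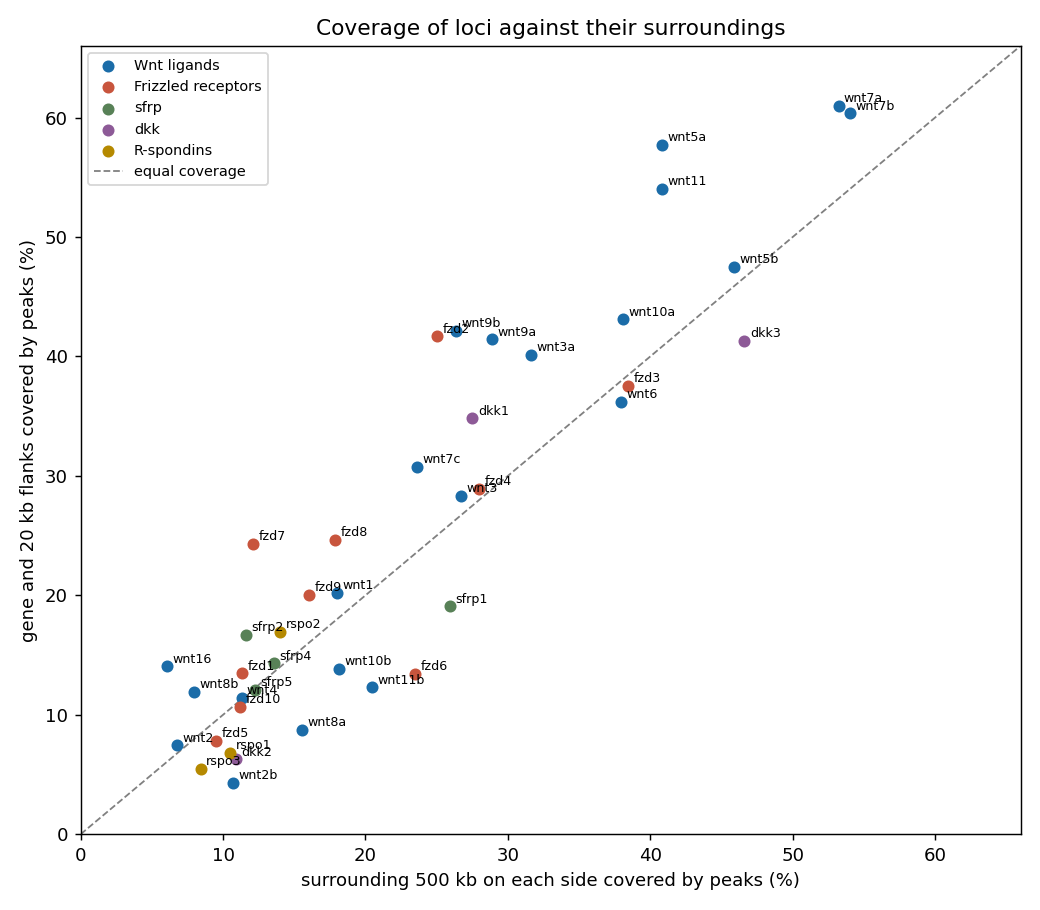
Percent of each gene and its 20 kb flanks covered by stage 65 peaks (vertical axis) against the percent covered in the 500 kb beyond each flank (horizontal axis), coloured by subfamily, with a dashed line of equal coverage. Of the 41 genes 26 lie above the line, and wnt5a, fzd2, wnt9b, wnt11, wnt9a and fzd7 lie farthest above it in percentage points. By ratio wnt16 and fzd7 are highest.

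Several wnt genes lie side by side, and in 2 of the 3 pairs within 100 kb some peaks were counted for both genes. The closest pair was wnt9b and wnt3 on chromosome 10, which span 15474303 to 15480879 and 15489928 to 15506545 and are 9.05 kb apart. Of their peaks 11 were counted for both, and the 3 between the genes had folds of at most 5.69. A strong peak lay on the far side of wnt9b at chr10:15460801-15467479, 8003 bp from the gene. The pair wnt6 and wnt10a on chromosome 9 (82607134 to 82660307 and 82683542 to 82721404) was 23.2 kb apart, shared 7 peaks, and had 8 peaks in the gap that covered 48.9% of it, the tallest being the wnt10a gene-end peak. The pair wnt1 and wnt10b on chromosome 2 (136164354 to 136183680 and 136229894 to 136271103) was 46.2 kb apart. Their 20 kb flanks do not meet, so the absence of peaks counted for both follows from this distance. The gap held 8 peaks that covered 10.5% and reached 4.19. The strongest peak of wnt1 (11.8, 9.38 to 14.7) lay 2693 bp outside the gene on the side away from wnt10b. Farther apart, at 129.5 kb, were wnt3a and wnt9a on chromosome 6, a gap with no other coding gene in which 43 peaks covered 35.8%. By contrast, the 1109.8 kb between wnt2 and wnt16 on chromosome 3 held 99 peaks that covered 4.68%, and 10 coding genes.

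**Figure D5:**
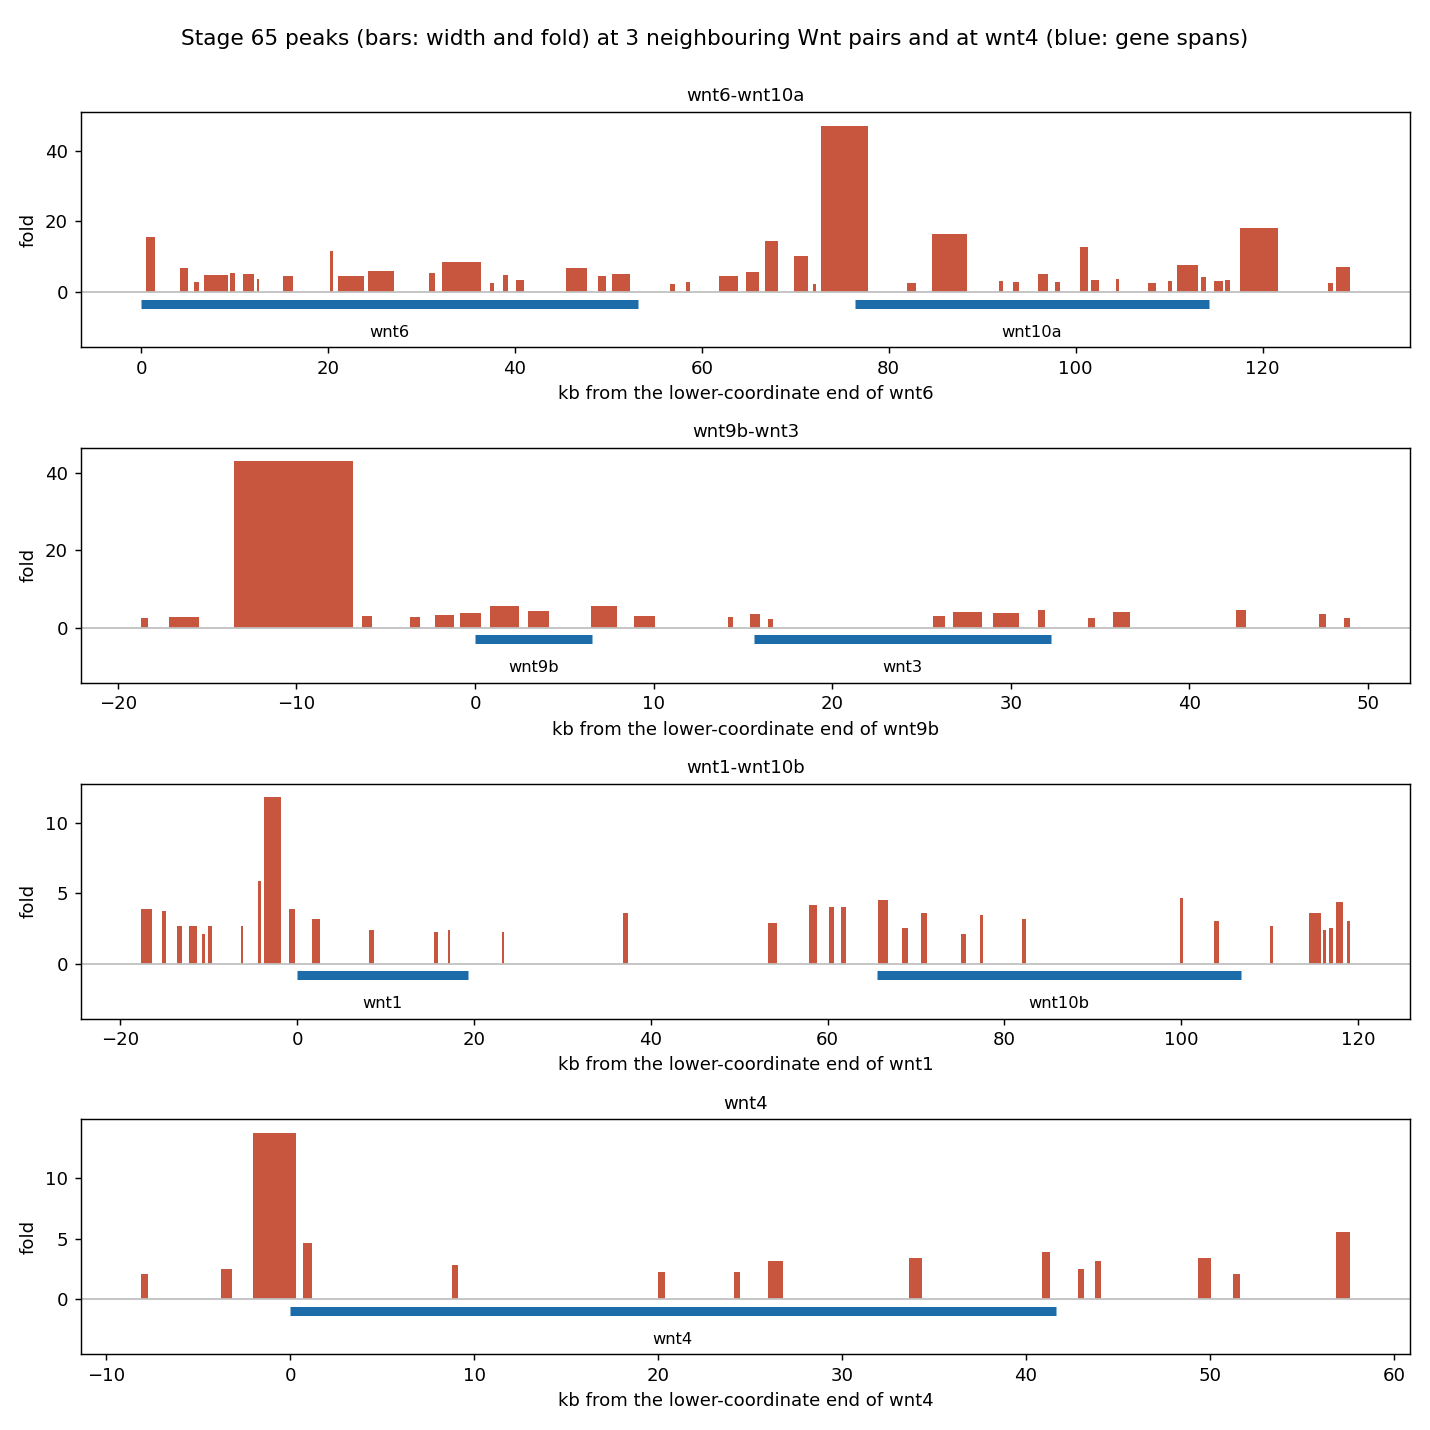
Stage 65 peaks along 3 neighbouring Wnt pairs and wnt4, with the width and fold of each peak as a bar and gene spans in blue. The horizontal axis is distance in kb from the lower-coordinate end of the first gene, and each panel has its own fold axis. Only peaks of the genes and their 20 kb flanks are drawn, so the middle of the gap between wnt1 and wnt10b is not shown. The tallest bars stand at the wnt10a end (47.2), beside wnt9b (43.0), beside wnt1 (11.8) and at the wnt4 end (13.8).

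Other genes of the pathway gave a similar picture. Of 54 listed genes 49 were found in the table, and 47 of these had a gene-end peak (95.9%, 86.0 to 99.5), where 85.7% of all coding genes had one. The median highest fold was 4.49. Receptors and co-receptors were occupied in 12 of 12, with 91.9 (84.8 to 99.5) at ptk7, a polarity co-receptor 1.35 Mb from a chromosome end, and 13.9 (11.3 to 17.0) at lrp6, the partner of Frizzled. Cytoplasmic genes were occupied in 14 of 14 and had no fold above 4.94, a value shared by apc, of the destruction complex, and dvl3, which relays the receptor signal. Nuclear genes were occupied in 9 of 10, with 8.38 at bcl9, a beta-catenin partner, and 7.94 at tcf7l2, and none at ctnnbip1, an inhibitor of beta-catenin. Planar polarity genes were occupied in 6 of 6, led by prickle2 (14.7) and vangl2 (6.44). Secreted antagonists outside the families were occupied in 4 of 5, with 4.94 at draxin, 3.44 at sostdc1 and none at wif1, the Wnt inhibitory factor. Both ligand processing genes found were occupied, wls, the Wnt carrier, with 3.74, and notum, the Wnt deacylase, with 80.1 (73.5 to 87.2). The notum value belongs to a single peak 120084 bp wide at chr10:26385395-26505478, and by summit the fold at notum was 3.59. By summit, the fold was 3.89 at ptk7 and 4.19 at lrp6, and bcl9 and prickle2 had no gene-end peak.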

How the data were processed

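ATAC-seq peaks of 1 library (urostyle, stage 65, replicate 1) were used. The tools listed in the submitters' processing notes are Bowtie2, Genrich, MACS2 and Picard, with no roles. The sources used here give no genome build, read filter or read total. Chromosome names are those of the UCB_Xtro_10.0 gene table, which gave spans without strand or sequence, and on each chromosome the last peak ended beyond the last coding gene. The deposited fold, read as a ratio over a background pileup, was in whole steps of 0.150 (largest departure 0.000341 of a step below a fold of 20). Pileups and the background of 5.68 were recovered from this step on the assumption that 1 was added to both. The deposited −log10 q served for a stricter threshold, and the deposited −log10 p-value and the deposited score were not used.

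Peaks overlapping 1 kb around a gene end by at least 1 bp counted as gene-end peaks. Others were counted by summit as interior or 20 kb flank peaks. The script was tested on simulated data. Named genes were the highest by gene-end fold in each subfamily or role, those without a gene-end peak, the extremes of peak density and neighbouring members within 100 kb. Other members were given by range or where they stood apart, chosen after their values were seen. Members, lists and rules were chosen with earlier results of these data known. Distance classes and surroundings were added after seeing values. Python 3.11.15, numpy 2.4.6, pandas 2.3.3 and scipy 1.17.1 were used. A start-only setting and promoter motifs were not run, since no strand or sequence was used here, and length was compared by classes of all coding genes.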

Additional observations from a re-analysis of the deposited data

How the results depend on the processing

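Gene-end occupancy was 37 of 41 members (90.2%, against 76.8% of all coding genes) with 500 bp windows, 39 (95.1%, against 95.2%) with 2.5 kb windows, 36 (87.8%, against 75.8%) with at least 50% of the peak in the window, 36 (87.8%, against 72.9%) with a −log10 q of at least 5 and 38 (92.7%, against 84.6%) without peaks wider than 5 kb. With a fold of at least 4 it was 30 (73.2%, against 50.6%), including 2 of 4 sfrp and 1 of 3 rspo genes. Median coverage was 20.1% over members and 17.9% over all coding genes in the main setting, and 23.9% against 17.9% with 10 kb flanks. Median density was 1.50 per 10 kb with a −log10 q of at least 5 and 0.739 with a fold of at least 4, and median coverage 13.5% and 6.65%. These settings keep fewer peaks. Over all coding genes the values were 1.39, 0.600, 12.6% and 7.11%. Members were thus above all coding genes in coverage in the main setting but below them with a fold of at least 4. Without genes under 20 Mb from a chromosome end, chosen after seeing the data, median coverage was 13.4%, against 13.8% for all coding genes, and the median gene-end fold 4.34 against 3.59. The median gene-end fold stayed between 4.34 and 4.94 in every setting run. No paired analysis was possible because a single library was used. The start-only setting was not run. A fold of 4.79 rests on a recovered pileup of 31, so most members cannot be ranked.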

Other observations

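Related genes whose symbols fall outside the number rule gave further values. At sfrpx, 2.09 Mb from the end of chromosome 2, a gene-end peak at chr2:178918793-178927785 had a fold of 41.8 (37.0 to 47.0), and peaks covered 64.3% of the gene and its flanks, against 45.1% around it. This peak is 8993 bp wide, and its fold by summit is not given here. No numbered sfrp gene came near the fold of 41.8. All 4 of them lay farther from a chromosome end, from 26.9 Mb at sfrp1 to 63.6 Mb at sfrp4. At frzb2, known in Xenopus as crescent, 4 gene-end peaks had a highest fold of 3.89 (2.57 to 5.68), and at dkkx it was 3.14 (1.98 to 4.77). At frzb, which encodes a secreted Frizzled-related protein, it was 2.99 (1.86 to 4.59).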
